A study of Rattus norvegicus with 5 samples.

Results

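The insulin-like growth factor genes described here are the ligands Igf1 (ENSRNOG00000004517) and Igf2 (ENSRNOG00000020369), the receptor gene Igf1r (ENSRNOG00000014187), and the binding protein genes Igfbp3 (ENSRNOG00000061910) and Igfbp5 (ENSRNOG00000017206). They were chosen by name, with earlier results of these data known, and are 5 of the 17066 features in the tables. All 5 were listed in each of the 5 tables. They were measured by single-cell RNA sequencing of primary ventricular cells, labelled as myocytes with non-myocytes, from wild-type Sprague Dawley rats at postnatal day 2. An adenovirus delivered either GFP or the transcription factor TBX18, and the cultures were harvested at day 3 or day 14. A further day 14 culture with the TBX18 virus was also given 0.2 µM A83-01, which blocks signalling by TGF-beta receptors. The title of the study names the reprogramming of myocytes toward pacemaker cells by TBX18 as its subject. The groups are thus GFP day 3, TBX18 day 3, GFP day 14, TBX18 day 14 and TBX18 with A83-01 at day 14, each with 1 library. The last is called the A83-01 library from here on. Its title says day 14 and its treatment label 3 days, so how long the inhibitor was present is unclear, and no library of GFP with A83-01 was analysed here. With 1 library per group, differences between groups have no replicate check and carry no test, and all intervals are 95% intervals that cover counting error only.

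Insulin-like growth factors are small secreted hormones related to insulin. IGF-1 and IGF-2 bind the type 1 IGF receptor, a receptor tyrosine kinase that signals through PI3 kinase and MAP kinase, and in the heart IGF-1 is known as a growth and survival factor for cardiomyocytes. Secreted IGF-binding proteins hold the ligands in the extracellular space and can limit or prolong their access to the receptor. IGFBP-3 is the main carrier of IGF in blood, and IGFBP-5 binds extracellular matrix.

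The tables give genes as Ensembl identifiers without symbols, and 0 of 17060 identifiers could be paired with a name from the gene table used here. Cells could therefore not be called myocytes or stromal cells from markers, and the labelled cell types were not checked. Cells were clustered on genes other than the IGF genes and virus transcripts. The clusters were then joined into 2 broad groups, called compartments, and the number 2 was set in advance. A compartment may therefore hold more than 1 cell type. The numbering follows EGFP in the day 3 GFP library, where 54.0% of compartment 1 cells and 7.21% of compartment 2 cells had an EGFP UMI, the tag of 1 captured RNA molecule. Libraries held 6424 to 8859 barcodes and 104781422 to 202024200 UMIs, and from 6044 to 7887 cells were kept. Compartment 1 held 59.2% and 51.6% of the kept cells in the GFP and TBX18 libraries at day 3, and 33.1%, 15.95% and 34.2% in the GFP, TBX18 and A83-01 libraries at day 14. EGFP was found in both GFP libraries and ZsGFP and human TBX18 in the 3 TBX18 libraries, with at most 1 UMI of the other virus in any library. Pairs of libraries shared 7 to 20 cell barcodes. Of 31 clusters with a compartment, 16 came to at least 90% from 1 library, and these held 75.1% of cells. A further 1 cluster, of 52 cells over all libraries, held under 20 cells in each library and was given no compartment. Its cells enter no level and are not in the numbers of kept cells.

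For reference, the 250 bases before the RefSeq transcription start (GRCr8) are shown for the 3 members with the most UMIs in these cells. Igf1 and Igfbp3 are shown because both were higher in compartment 2 in every library, and Igfbp5 because its level differed most between libraries. RefSeq windows matched 5 of 5 members. Capitals mark matches to the letters searched, and coordinates are chr7:24172282-24172531 on the plus strand for Igf1, chr14:86277945-86278194 on the minus strand for Igfbp3 and chr9:81914188-81914437 on the minus strand for Igfbp5.
Igf1: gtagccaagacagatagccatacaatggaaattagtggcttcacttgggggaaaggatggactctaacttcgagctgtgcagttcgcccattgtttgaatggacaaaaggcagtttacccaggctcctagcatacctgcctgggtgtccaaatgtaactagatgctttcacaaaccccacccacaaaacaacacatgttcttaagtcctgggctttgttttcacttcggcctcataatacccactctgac
Igfbp3: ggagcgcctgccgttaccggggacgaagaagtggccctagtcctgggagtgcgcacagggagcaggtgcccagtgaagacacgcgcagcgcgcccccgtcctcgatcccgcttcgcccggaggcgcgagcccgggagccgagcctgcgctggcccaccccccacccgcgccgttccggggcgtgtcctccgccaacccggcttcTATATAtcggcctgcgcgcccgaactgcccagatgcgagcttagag
Igfbp5: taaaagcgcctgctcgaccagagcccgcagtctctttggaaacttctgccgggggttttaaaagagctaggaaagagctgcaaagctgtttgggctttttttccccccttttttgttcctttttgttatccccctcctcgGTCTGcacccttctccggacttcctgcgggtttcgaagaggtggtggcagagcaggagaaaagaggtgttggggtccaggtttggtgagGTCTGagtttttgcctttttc
Motifs were searched on both strands of windows that run from 250 bases before to 50 bases after the start. The T-box core GGTGTGA was in 0 of the members' 6 windows, and 3.83% of 33469 RefSeq windows of the same length held it. The SMAD core CAGAC, the letters bound by transducers of TGF-beta signalling, occurred 2 times in the Igfbp5 window, as GTCTG on the opposite strand beginning 110 and 21 bases before the start. It also occurred 1 time in the second of the Igf2 windows, and 50.1% of all windows held it. The letters TATATA, added to the search after the sequence had been read, began 46 bases before the Igfbp3 start and were in 6.15% of all windows. TATAAA was in 0 of the members' windows and in 14.2% of all. The GC box GGGCGG was in both Igf2 windows and in that of Igf1r, and in 33.1% of all windows. None of these letters was in the Igf1 window. A match is only a match of letters, and these short motifs overlapped no other motif searched in the 3 sequences shown.

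Igf1, the ligand made by many mesenchymal cells, was carried almost wholly by compartment 2. In that compartment its level at day 3, as UMIs per 1000000 UMIs of the compartment (CPM), was 575 (95% interval 569.9 to 581) for GFP and 550.1 (545 to 555) for TBX18. At day 14 the level was 1090.5 (1082 to 1099) for GFP, 1312 (1305 to 1319) for TBX18 and 404 (399.8 to 409) for A83-01. The lowest level was thus that of the A83-01 library and the highest that of TBX18 alone at the same day. The shares of compartment 2 cells with at least 1 Igf1 UMI, after each cell was thinned to 5000 UMIs, followed the same order except that GFP and TBX18 at day 14 changed places: 80.5% and 79.4% at day 3, and 93.1%, 92.5% and 69.7% at day 14 for GFP, TBX18 and A83-01. Without thinning the shares were 96.0%, 94.8%, 98.7%, 97.6% and 88.1% in the same order. No cell type known to lack Igf1 could be named, so the thinned shares in compartment 1 stand beside these: 1.71%, 2.36%, 12.9%, 17.3% and 3.43%. Barcodes with under 500 genes, which existed at day 3 only, held 3.07 and 3.37 CPM of Igf1 in the GFP and TBX18 libraries, from 16 and 10 UMIs.

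In compartment 1, Igf1 stood at 5.73 CPM (5.28 to 6.21) with GFP and 7.02 CPM (6.48 to 7.59) with TBX18 at day 3. It stood at 103 CPM (99.02 to 106) with GFP, 87.5 CPM (83.6 to 91.7) with TBX18 and 9.95 CPM (9.08 to 10.9) with A83-01 at day 14. Igf1 was higher in compartment 2 than in compartment 1 in 5 of 5 libraries, between 10.6-fold (GFP day 14) and 100.4-fold (GFP day 3). These folds depend on doublets: with no cells left out as doublets, Igf1 in compartment 1 stood at 27.3, 33.4, 199.5, 189 and 35.3 CPM in the order GFP day 3, TBX18 day 3, GFP day 14, TBX18 day 14 and A83-01, and the folds ran from 5.47 (GFP day 14) to 20.9 (GFP day 3). Of all genes compared, 28.5%, 27%, 26.1%, 21.7% and 33.8% were at least 2-fold higher in compartment 2 in the order of the libraries. Most of the Igf1 UMIs of compartment 1 came from a few small clusters whose profile was mixed. In these clusters the 200 genes that most distinguish compartment 2 together reached at least 40% of their level in compartment 2, a threshold chosen after the values had been seen (the cluster just inside it reached 40.5% and the one just outside 38.2%). They made up 1.55%, 4.20%, 12.2%, 11.8% and 13.2% of compartment 1 cells in the order GFP day 3, TBX18 day 3, GFP day 14, TBX18 day 14 and A83-01. They held 72.2%, 55.1%, 90.2%, 79.0% and 84.2% of the compartment's Igf1 UMIs in that order. Their median depth varied: 30619 UMIs in cluster 27 with GFP at day 3, 36673 in cluster 27 and 4513 in cluster 25 with TBX18 at day 3, and at day 14 23576 in cluster 20 with GFP, 22479.9 in cluster 20 and 8877 in cluster 30 with TBX18, and 22296 in cluster 21 with A83-01. All cells of compartment 1 had medians of 22337, 29740, 15093, 15679 and 19480 UMIs. Of these 7 clusters, 5 were deeper than the compartment as a whole. The part of doublets that remained in them was not tested. Without them, Igf1 in compartment 1 was at 1.63, 3.25, 12.05, 21.3 and 1.83 CPM, between 0.28% and 1.62% of the level in compartment 2.

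**Figure D1:**
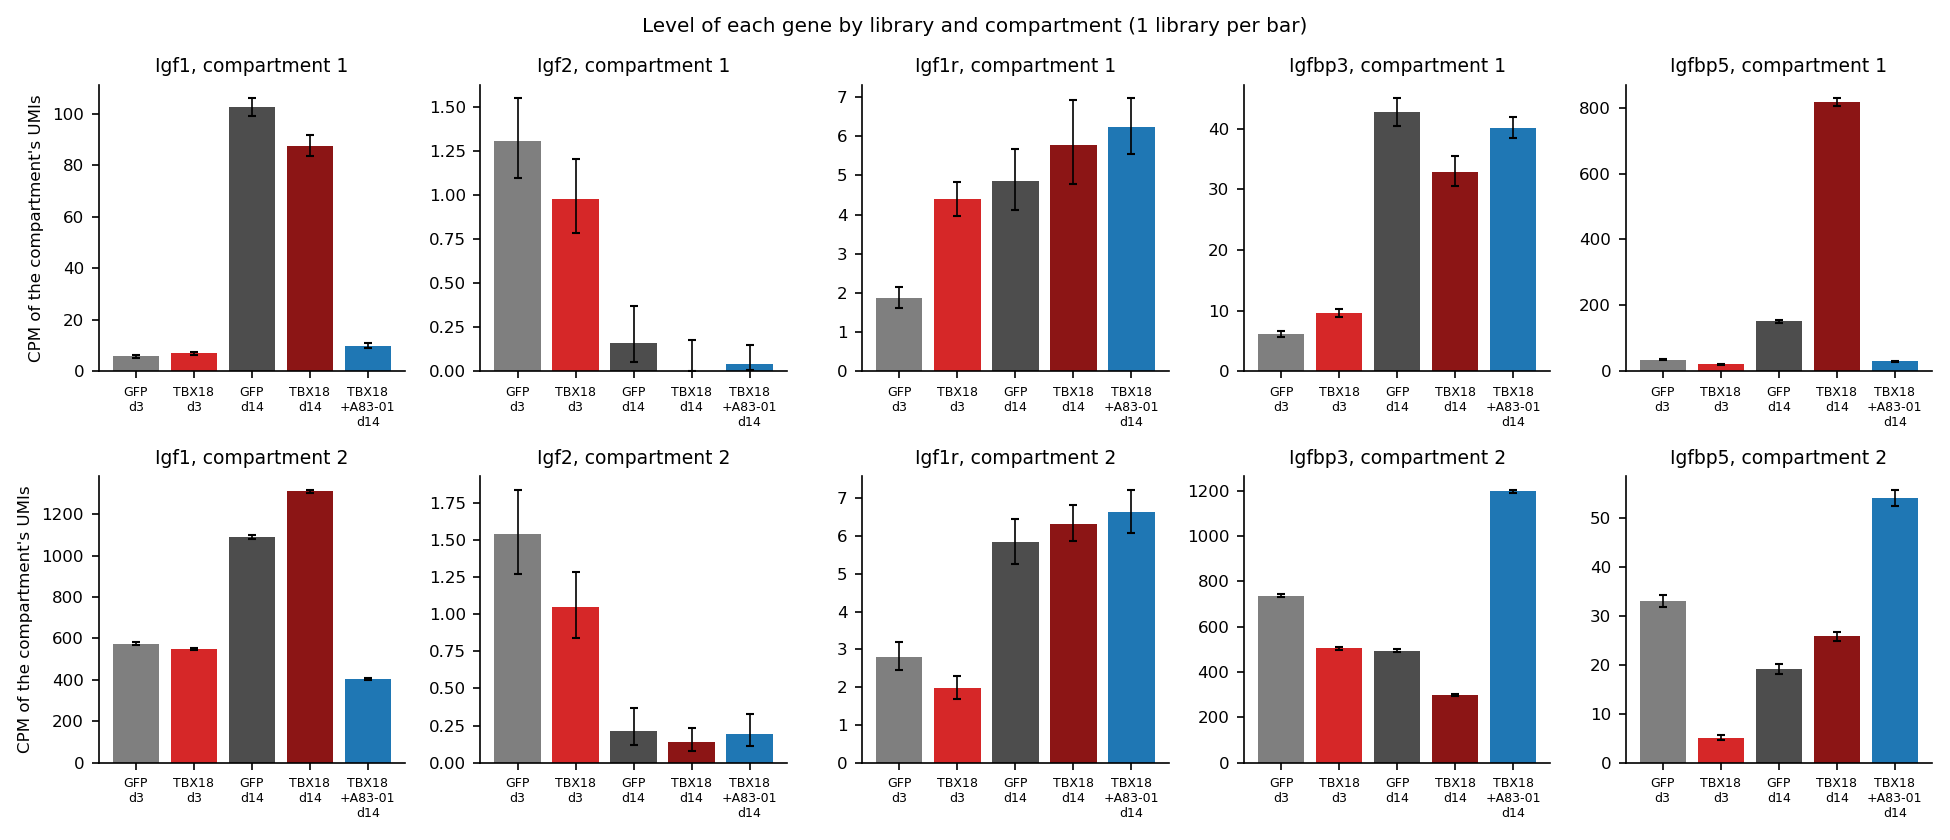
Levels of the 5 genes (rows of panels: compartment 1 above, compartment 2 below) in CPM. Each bar is 1 library (d3, day 3; d14, day 14) and each error bar the exact 95% Poisson interval for counting error. Igfbp5 in compartment 1 stands at 816 CPM in the TBX18 library at day 14, while Igf1 in compartment 2 is lowest (404 CPM) and Igfbp3 highest (1197 CPM) in the A83-01 library.

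A83-01 with TBX18 was set against TBX18 alone at day 14, and Igf1 was lower with A83-01 in both compartments. The log2 ratio was -1.70 (-1.72 to -1.68) in compartment 2, a level 3.25-fold lower, and -3.14 (-3.28 to -2.99) in compartment 1. The compartment 1 ratio was -3.54 without the clusters of mixed profile and -2.42 with no cells left out as doublets. Over the genes compared, the 5th percentile of the same ratio was -1.09 in compartment 2 and -1.27 in compartment 1. Clusters of compartment 2 that held at least 20 cells of both libraries showed the same direction. Igf1 stood at 249.1 CPM with A83-01 and 928 CPM without it in cluster 12, and at 606 CPM and 1084 CPM in cluster 23. Within the A83-01 library the level was 470.3 CPM in cluster 1, which held 79.1% of compartment 2 cells, and 75.1 CPM in cluster 16, the lowest of its compartment 2 clusters.

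TBX18 against GFP gave small ratios for Igf1 in compartment 2 at both days. The log2 ratio was -0.06 (-0.08 to -0.05) at day 3, and it was 0.040 under median-of-ratios scaling and 0.047 over the range of genes and UMIs per cell that the day 14 tables hold (the day 14 range), so its direction at day 3 is not settled. At day 14 the ratio was 0.27 (0.25 to 0.28), but the 4 clusters that held at least 20 cells of both libraries were divided. Igf1 was higher with TBX18 in 2 of them, with ratios of 0.36 in clusters 5 and 12. It was lower in 2, with ratios of -0.36 (-0.45 to -0.27) in cluster 4 and -0.44 (-0.54 to -0.33) in cluster 23. In compartment 1 the ratios were 0.29 at day 3 and -0.23 at day 14. Without the clusters of mixed profile they were 0.995 and 0.82, and at day 3 the ratio was 0.93 with no filter on genes per cell and 1.46 over the day 14 range.

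Day 14 stood above day 3 for Igf1 with both viruses. In compartment 2 the log2 ratio was 0.92 (0.91 to 0.94) with GFP and 1.25 (1.24 to 1.27) with TBX18. In compartment 1 the ratios were 4.16 and 3.64. Without the clusters of mixed profile they were 2.89 and 2.71, with no cells left out as doublets 2.87 and 2.501, and with no filter on genes per cell 5.91 and 4.75, and with GFP over the day 14 range 6.14. The tables of the days differ in unit, in the range of genes and UMIs per cell they hold and in the genes they list, so day and table cannot be told apart in any comparison of day 14 with day 3.

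Igf2, the ligand of fetal growth, was sparse in both compartments. At day 14 it rested on at most 16 UMIs in any compartment of a library. In compartment 2 it stood at 1.54 CPM (1.27 to 1.84) with GFP and 1.05 CPM (0.84 to 1.29) with TBX18 at day 3. The day 14 levels there were 0.213, 0.141 and 0.195 CPM with GFP, TBX18 and A83-01, from 14, 15 and 16 UMIs. The A83-01 level was not stable: it was 1.48 CPM over the day 14 range and 1.44 CPM with no cells left out as doublets, so no direction is given for Igf2 with A83-01. The cells without a compartment, over all libraries, were 52 in the main clustering, 0 over the day 14 range and 20 with no cells left out as doublets. Their part in the Igf2 levels was not tested. In compartment 1 the levels were 1.31 and 0.98 CPM at day 3 and 0.158 CPM with GFP at day 14. Compartment 1 of the day 14 TBX18 library had 0 Igf2 UMIs (3 UMIs would be 0.146 CPM), and that of the A83-01 library had 2. Igf2 was therefore lower at day 14 than at day 3 in each virus and compartment: 8.31-fold and 7.03-fold with GFP in compartments 1 and 2, 7.43-fold with TBX18 in compartment 2, and at least 6.72-fold with TBX18 in compartment 1, against a floor of 3 counts in that library and compartment. Its counts are uncertain, since from 22.3% to 80.9% of its UMIs by library sat in values that were not whole, and the other 4 genes had none. The log2 ratio of TBX18 to GFP at day 3 was -0.42 (-0.83 to -0.02) in compartment 1 and -0.55 (-0.97 to -0.15) in compartment 2. At day 14 the interval in compartment 2 ran from -1.79 to 0.52. In compartment 1 with GFP at day 3, 1 cell held 40.5 of the 134 Igf2 UMIs, while the most in a cell with TBX18 was 2. The ratio without that cell was not computed, so no direction is given for TBX18 over GFP in compartment 1 at day 3. The 8.31-fold difference with GFP in compartment 1 also counts that cell.

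Igf1r, the gene of the signalling receptor, was sparse in both compartments. In compartment 1 it stood at 1.86 CPM (1.60 to 2.14) with GFP and 4.39 CPM (3.96 to 4.84) with TBX18 at day 3. The day 14 levels there were 4.86 CPM (4.12 to 5.69), 5.78 CPM (4.79 to 6.91) and 6.23 CPM (5.54 to 6.97) with GFP, TBX18 and A83-01. The GFP library at day 3 was the low one, and the intervals of the 3 libraries at day 14 overlapped. In compartment 2 the levels were 2.80 CPM (2.44 to 3.20) and 1.97 CPM (1.69 to 2.30) at day 3 with GFP and TBX18. They were 5.84 CPM (5.27 to 6.47), 6.33 CPM (5.86 to 6.83) and 6.64 CPM (6.09 to 7.23) at day 14, again with overlapping intervals. TBX18 over GFP at day 3 therefore pointed in opposite directions, with a log2 ratio of 1.24 (0.99 to 1.497) in compartment 1 and -0.51 (-0.80 to -0.21) in compartment 2. Within a library, Igf1r was 2.22-fold lower in compartment 2 than in compartment 1 with TBX18 at day 3 and 1.51-fold higher with GFP at day 3, while at day 14 the intervals of this ratio spanned 0 in all 3 libraries. After thinning, 0.98% of compartment 1 cells had an Igf1r UMI with GFP at day 3 and 2.03% with TBX18. Unthinned shares there were 4.15% and 11.3%, at median depths of 22337 and 29740 UMIs. A83-01 over TBX18 alone gave log2 ratios of 0.11 (-0.20 to 0.43) and 0.07 (-0.10 to 0.23) in compartments 1 and 2, both with intervals that span 0. The compartment 1 ratio depended on the scaling: it was 0.67 under median-of-ratios scaling, above that interval. The highest cluster was cluster 28 of the TBX18 library at day 14, 87 cells of compartment 2 with 20.1 CPM.

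Igfbp3, the binding protein that carries most circulating IGF, lay with Igf1 in compartment 2. Its levels there were 737 CPM (730.5 to 743) with GFP and 504 CPM (499 to 509) with TBX18 at day 3. The day 14 levels were 495 CPM (489 to 500.3) for GFP, 299.7 CPM (296 to 303) for TBX18 and 1197 CPM (1189.6 to 1205) for A83-01. The TBX18 library was lower than the GFP library of its day at both days, and the A83-01 library was the highest of all. In compartment 1 the levels were 6.14 and 9.53 CPM at day 3 with GFP and TBX18, and 42.7, 32.9 and 40.2 CPM at day 14 with GFP, TBX18 and A83-01. Without the clusters of mixed profile they were 3.79, 3.43, 6.39, 9.04 and 8.20 CPM. Igfbp3 was higher in compartment 2 in 5 of 5 libraries, from 9.10-fold (TBX18 day 14) to 119.9-fold (GFP day 3). With no cells left out as doublets, Igfbp3 in compartment 1 stood at 39.2, 39.9, 91.2, 65.4 and 123 CPM in the order of the libraries, and the folds ran from 4.62 (TBX18 day 14) to 18.3 (GFP day 3).

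In compartment 2 the log2 ratio of TBX18 to GFP for Igfbp3 was -0.55 (-0.57 to -0.53) at day 3 and -0.72 (-0.75 to -0.70) at day 14. These sit at the 5.19 and 1.20 percentile of all genes compared. The direction did not hold in every cluster that both libraries shared. At day 3 Igfbp3 was lower with TBX18 in 5 of 7 shared clusters of compartment 2, among them cluster 9 (354 against 825 CPM) and cluster 13 (410.0 against 946 CPM). In cluster 7, which held 67.7% of the compartment with TBX18 and 4.13% with GFP, the values were 605 and 584 CPM. The largest cluster with GFP was cluster 9, with 53.1% of the compartment. At day 14 it was lower in 1 of 4 shared clusters, namely cluster 12 (281 against 510.0 CPM), and the largest clusters of the libraries differed: cluster 4 held 83.3% of compartment 2 with GFP at 535 CPM, and cluster 2 held 54.4% with TBX18 at 255 CPM. In compartment 1 the ratio at day 3 was 0.63, and it was -0.13 with no filter on genes per cell and -0.14 without the clusters of mixed profile, so no direction is given there. The ratio at day 14 in compartment 1 was -0.38, and it was 0.50 without those clusters.

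A83-01 with TBX18 against TBX18 alone gave a log2 ratio of 1.998 (1.98 to 2.02) for Igfbp3 in compartment 2, 3.995-fold higher and at the 99.7 percentile of all genes compared. The share of cells with an Igfbp3 UMI after thinning was 78.8% (77.6 to 80.0) with A83-01 and 42.3% (41.1 to 43.5) without it, the highest and the lowest of the 5 libraries. The other shares were 68.4% and 57.7% at day 3 with GFP and TBX18, and 53.8% with GFP at day 14. Unthinned, they were 83.4%, 82.1%, 69.7%, 63.8% and 89.3% in the order of the libraries. The thinned shares in compartment 1 were 2.32%, 2.56%, 6.65%, 8.84% and 7.84%, and barcodes with under 500 genes held 2.69 and 2.699 CPM of Igfbp3 in the GFP and TBX18 libraries at day 3. Shared clusters of compartment 2 gave 1037 against 281 CPM in cluster 12 and 106 against 31.6 CPM in cluster 23. The compartment 1 ratio was 0.29, and it was -0.14 without the clusters of mixed profile and 0.91 with no cells left out as doublets. Day 14 over day 3 gave log2 ratios for Igfbp3 of -0.57 with GFP and -0.75 with TBX18 in compartment 2, and of 2.80 and 1.79 in compartment 1. The compartment 1 ratios were 0.75 and 1.40 without the clusters of mixed profile, and 1.22 and 0.71 with no cells left out as doublets. With A83-01 against TBX18 alone, Igf1 and Igfbp3 differed in opposite directions in compartment 2.

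**Figure D2:**
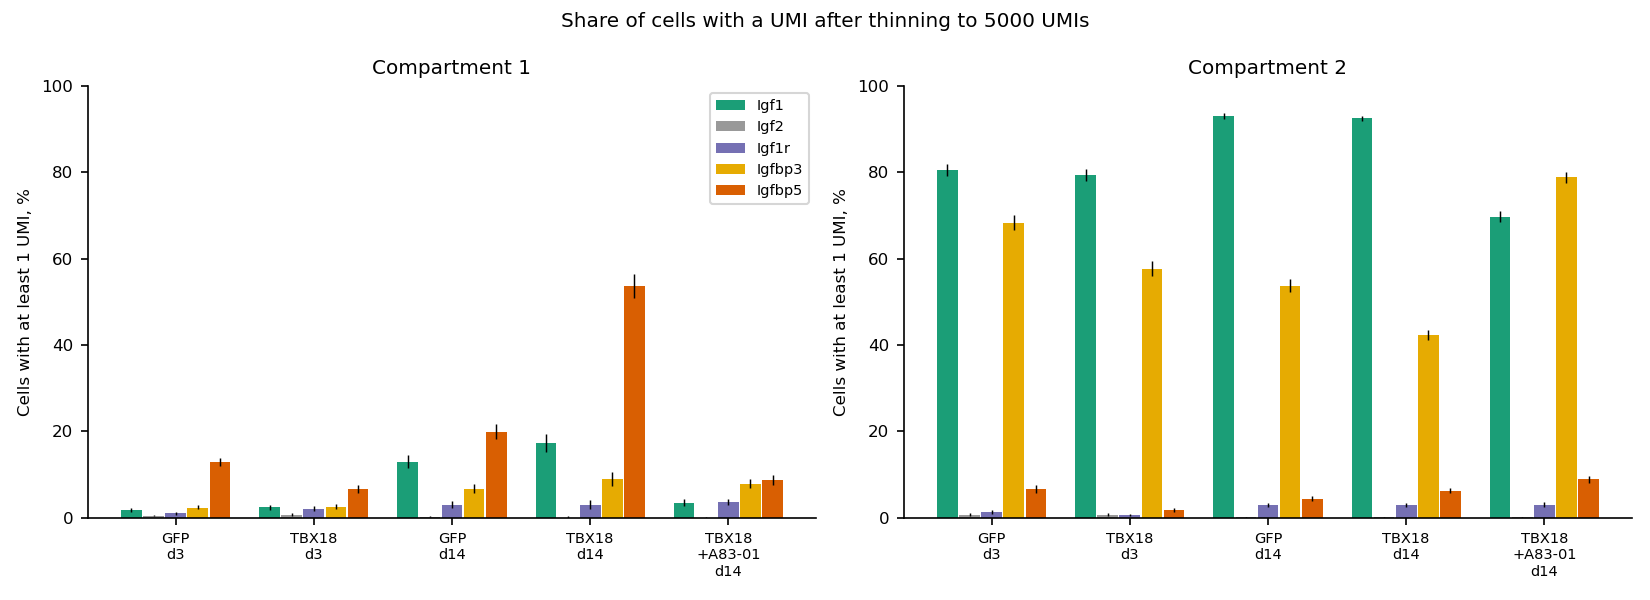
Share of cells with at least 1 UMI of each gene after thinning every cell to 5000 UMIs, in compartment 1 (left) and compartment 2 (right). Bars are single libraries and lines the exact 95% binomial interval. Igfbp3 ranges from 42.3% (TBX18 day 14) to 78.8% (A83-01) of compartment 2 cells, and Igfbp5 reaches 53.7% of compartment 1 cells in the TBX18 library at day 14.

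In compartment 2, Igfbp3 was detected in a larger share of cells with an Igf1 UMI than of cells without one, in each library. Most cells there had an Igf1 UMI, and those without one numbered only 279 with GFP and 495 with TBX18 at day 14. Clusters were pooled for these shares. After thinning, Igfbp3 was detected in 71.6% of cells with an Igf1 UMI and 55.1% of cells without one in the GFP library at day 3, and in 61.9% and 41.5% in the TBX18 library. At day 14 the shares were 55.3% and 33.0% with GFP, 42.9% and 35.2% with TBX18, and 83.1% and 68.9% with A83-01. In some clusters that held Igf1, Igfbp3 was far below its own level over compartment 2 of the same library. Cluster 19 at day 3 had 354 CPM of Igf1 and 21.8 CPM of Igfbp3 with GFP, and 620 CPM and 29.7 CPM with TBX18. Cluster 23 at day 14 had 1467 CPM of Igf1 and 14.8 CPM of Igfbp3 with GFP, and 1084 CPM and 31.6 CPM with TBX18. Cluster 28 of the TBX18 library at day 14 had the highest Igfbp3 of all, 2832 CPM beside 744 CPM of Igf1, from cells with a median of 8629 UMIs.

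**Figure D3:**
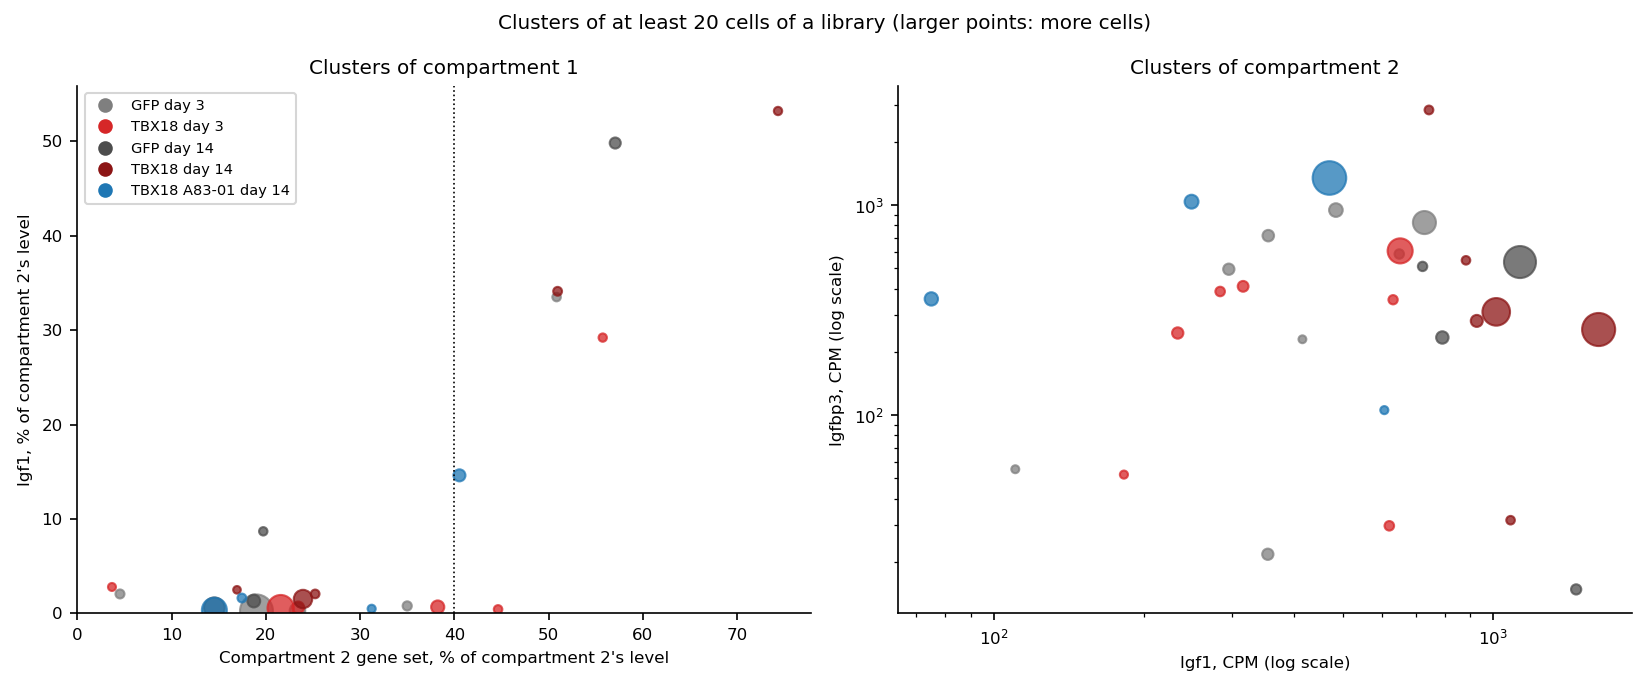
Left, clusters of compartment 1: Igf1 as a percent of its level in compartment 2 of the library (vertical) against the level of the gene set of compartment 2, also as a percent (horizontal, dotted line at 40%). Right, clusters of compartment 2: Igfbp3 against Igf1 in CPM on log scales. Each point is a cluster of at least 20 cells in 1 library, larger with more cells. Clusters with Igf1 above 10% of compartment 2 lie right of the dotted line, and a few clusters of compartment 2 combine Igf1 of 354 CPM or more with Igfbp3 of at most 106 CPM.

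Igfbp5, the matrix-binding member, was the only one of the 5 genes with its highest level in compartment 1. There it stood at 35.0 CPM (33.9 to 36.2) with GFP and 20.4 CPM (19.5 to 21.4) with TBX18 at day 3. At day 14 it stood at 151 CPM (147 to 156) for GFP, 816 CPM (804 to 829) for TBX18 and 30.7 CPM (29.1 to 32.3) for A83-01. The TBX18 library at day 14 was far above the other 4, and the A83-01 library was second lowest. In compartment 2 the levels were 33.1 CPM (31.8 to 34.4) with GFP and 5.13 CPM (4.66 to 5.63) with TBX18 at day 3, the latter 8.35 CPM over the day 14 range. Day 14 gave 19.2 CPM (18.1 to 20.3) for GFP, 25.8 CPM (24.9 to 26.8) for TBX18 and 54.2 CPM (52.6 to 55.9) for A83-01. The order of the libraries thus differed between compartments, with A83-01 highest in compartment 2. Compartment 2 was 31.6-fold below compartment 1 with TBX18 at day 14, 7.89-fold below it with GFP at day 14 and 3.98-fold below it with TBX18 at day 3. With A83-01 it was 1.77-fold above, and 1.12-fold under median-of-ratios scaling. In the GFP library at day 3 the log2 ratio was -0.08, and its sign depended on the processing. The shares of all genes at least 2-fold lower in compartment 2 were 18.7%, 17.3%, 16.7%, 15.9% and 15.6% in the order of the libraries.

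At day 14, TBX18 over GFP gave a log2 ratio of 2.43 (2.39 to 2.48) for Igfbp5 in compartment 1, 5.40-fold higher and at the 99.7 percentile of all genes. Thinned shares of compartment 1 cells with an Igfbp5 UMI were 19.9% with GFP and 53.7% with TBX18. Unthinned they were 32.8% and 65.6%. The tenth of cells with the most Igfbp5 held 62.5% of its UMIs in the TBX18 library, and 433 UMIs was the highest in a cell. Different clusters held most of the compartment in these libraries: cluster 11 held 64.7% of its cells with GFP, and cluster 10 held 79.3% with TBX18. Within cluster 10 Igfbp5 was at 361 CPM with GFP and 975 CPM with TBX18, a log2 ratio of 1.43. Within cluster 11 it was at 102 CPM with GFP (1294 cells) and 353 CPM with TBX18 (21 cells). Igfbp5 was higher with TBX18 in 4 of the 4 clusters of compartment 1 that both libraries shared. Of these, cluster 20 was of mixed profile in both libraries. In compartment 2 the ratio was 0.43 (0.33 to 0.53), and Igfbp5 was higher with TBX18 in 2 of 4 shared clusters and lower in 2. The ratios were 0.40 (0.18 to 0.63) in cluster 5 and 2.27 (-0.12 to 5.58) in cluster 23. They were -0.24 (-1.02 to 0.45) in cluster 4 and -0.59 (-1.18 to 0.02) in cluster 12.

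With A83-01 added to TBX18, Igfbp5 in compartment 1 was 26.6-fold lower than with TBX18 alone, a log2 ratio of -4.73 (-4.81 to -4.66) and at the 0.044 percentile of all genes compared. Thinned shares of cells were 8.74% with A83-01 and 53.7% without it. Compartment 1 of the A83-01 library was held to 80.7% by cluster 8, where Igfbp5 stood at 24.3 CPM. Its 48 cells of cluster 10 had 129 CPM against 975 CPM in the cluster with TBX18 alone, a log2 ratio of -2.92 (-3.18 to -2.67). In cluster 24 the levels were 2.02 and 326 CPM. Over compartment 2 as a whole the direction was opposite, with a log2 ratio of 1.07 (1.00 to 1.14). With A83-01, 94.4% of that compartment's Igfbp5 UMIs came from cluster 1, which was not among the clusters both libraries shared. In the shared clusters 12 and 23 the ratios were 0.24 (-0.20 to 0.68) and -2.07 (-7.56 to 0.89), both with intervals that span 0. Shares of compartment 2 cells with an Igfbp5 UMI were 8.84% with A83-01 and 6.25% without it after thinning. Unthinned they were 13.6% and 14.1%. Both day 14 ratios of Igfbp5 rest on the same TBX18 library, so they are not separate observations of it.

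At day 3 the direction with TBX18, over each compartment as a whole, was the reverse of day 14. The log2 ratio of TBX18 to GFP for Igfbp5 was -0.78 (-0.86 to -0.70) in compartment 1 and -2.69 (-2.84 to -2.54) in compartment 2, 6.45-fold lower and at the 0.020 percentile of all genes. It was lower with TBX18 in 6 of 6 shared clusters of compartment 2 with UMIs in both libraries. Cluster 9 held the largest share of the compartment's Igfbp5 UMIs with GFP, and cluster 7 held 51.1% with TBX18. Igfbp5 stood at 32.8 CPM with GFP and 17.4 CPM with TBX18 in cluster 9 (log2 ratio -0.92). It stood at 8.35 and 3.99 CPM in cluster 7 (-1.06). Both drops were smaller than that over the compartment, whose largest cluster was 9 with GFP and 7 with TBX18. The part of this difference in clusters was not tested. In cluster 15, which held 33.7% of the compartment's Igfbp5 UMIs with GFP, the levels were 129 CPM with GFP and 14.5 CPM with TBX18. In cluster 13 they were 19.7 and 1.39 CPM, and in cluster 19, the least covered, 0.41 and 0.32 CPM. Few cells carried the gene there: after thinning 6.61% of compartment 2 cells had an Igfbp5 UMI with GFP and 1.76% with TBX18. Unthinned shares were 13.6% and 4.59%. The tenth of cells with the most held 95.7% of the UMIs in the GFP library.

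Day 14 over day 3 gave log2 ratios for Igfbp5 of 2.11 (2.05 to 2.17) with GFP and 5.32 (5.25 to 5.39) with TBX18 in compartment 1. In compartment 2 they were -0.79 (-0.89 to -0.69) with GFP and 2.33 (2.19 to 2.48) with TBX18, the latter 1.74 over the day 14 range.

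**Figure D4:**
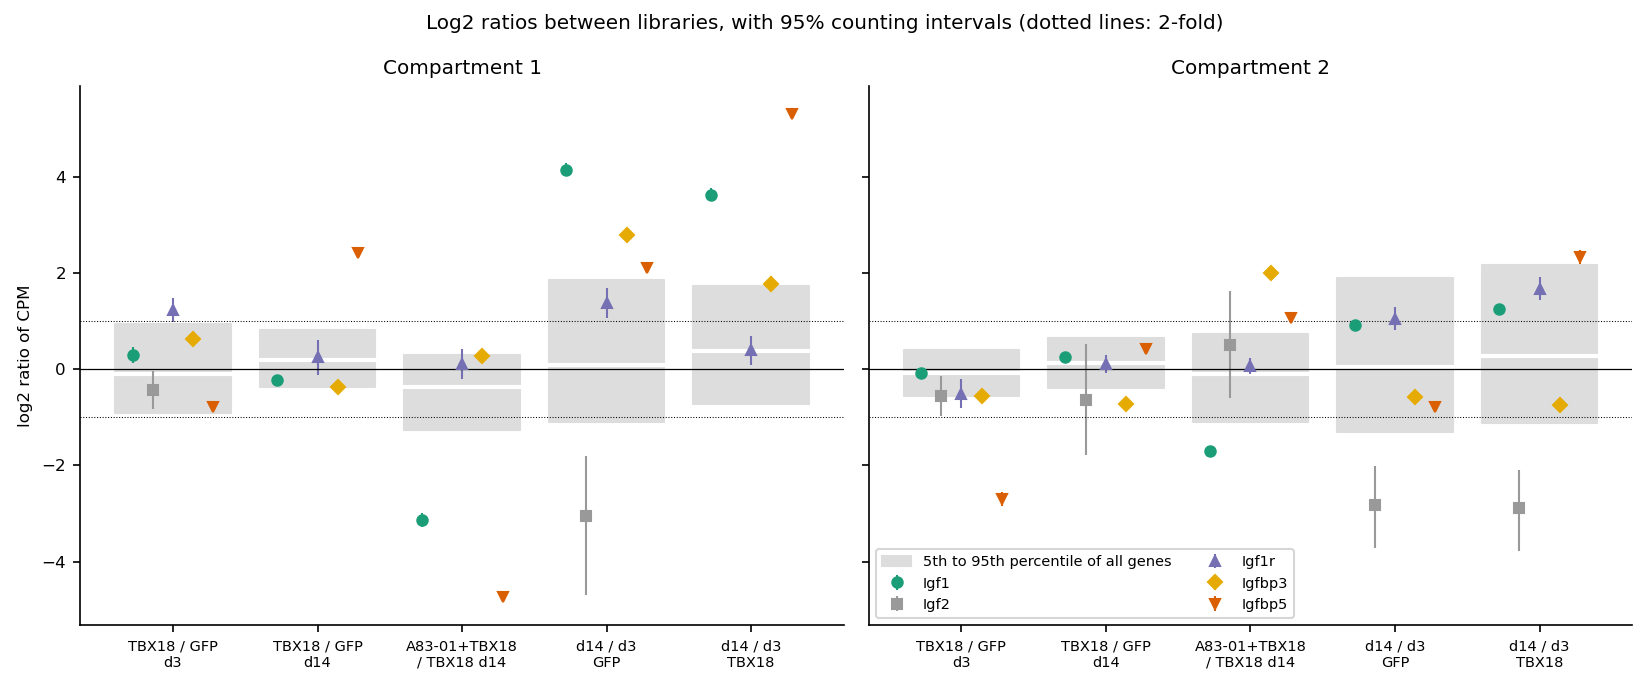
Log2 ratios of CPM between libraries for each gene in compartment 1 (left) and compartment 2 (right), with 95% counting intervals, which are often smaller than the symbols. Grey bars run from the 5th to the 95th percentile of all genes compared, white lines are their medians, dotted lines mark 2-fold, and Igf2 has no symbol where either library had no UMI or both were at or under 3 counts. Igfbp5 lies outside the grey bars in compartment 1 with TBX18 at day 14 (2.43) and with A83-01 (-4.73), and Igf1 and Igfbp3 lie outside them on opposite sides with A83-01 in compartment 2 (-1.70 and 1.998).

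Within each library, cells in which a UMI of the delivered virus was detected were then compared with cells in which none was. In compartment 1 of the TBX18 library at day 14, thinned Igfbp5 was at 1222 CPM (1154 to 1293) in 198 cells with a ZsGFP or human TBX18 UMI and at 852 CPM (827 to 877) in 1058 cells without one. In the A83-01 library it was at 60.7 CPM (49.4 to 73.7) and 30.2 CPM (27.0 to 33.7). At day 3 the direction was the reverse, with 16.1 CPM (13.2 to 19.3) in cells with such a UMI and 27.5 CPM (24.0 to 31.3) in cells without one. With GFP, the values were 33.8 and 39.6 CPM at day 3 and 164 CPM in both at day 14. Cells with a virus UMI were deeper (median 17864 against 15253 UMIs with TBX18 at day 14), and the virus UMIs were detected before thinning, so depth moves with this split, and its part was not tested. A cell without a detected UMI is not shown to be uninfected. Igfbp3 in compartment 2 of the A83-01 library was higher in cells with a virus UMI (log2 ratio 0.74, 0.65 to 0.83), and so it was with GFP at day 14 (0.42, 0.34 to 0.51). It was lower with TBX18 alone at day 14 (-0.29, -0.53 to -0.06) and at day 3 (-0.29, -0.45 to -0.13). In compartment 1 the Igfbp3 ratio went the other way with A83-01 (-0.62, -1.10 to -0.17) and with TBX18 at day 3 (0.60, 0.04 to 1.16). There it was 0.67 (0.35 to 0.99) with GFP at day 14. Its interval spanned 0 with TBX18 at day 14 and with GFP at day 3.

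**Figure D5:**
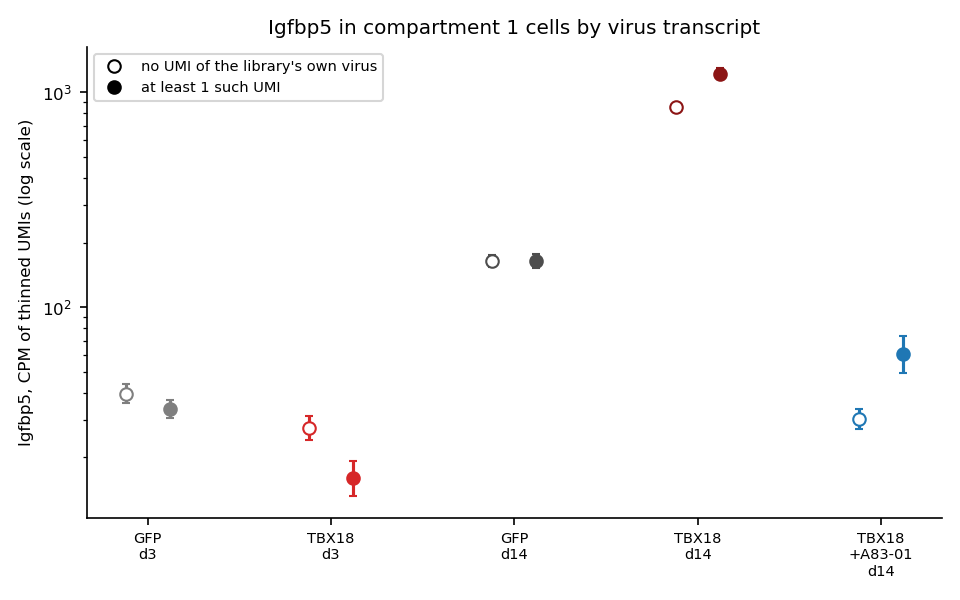
Igfbp5 in compartment 1 cells with (filled) and without (open) a UMI of the library's own virus, as CPM of UMIs thinned to 5000 per cell, on a log scale. Lines are exact 95% Poisson intervals. Filled points lie above open ones with TBX18 and A83-01 at day 14. They lie below with TBX18 at day 3 and, with a smaller gap, with GFP at day 3 (33.8 against 39.6 CPM).

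Counted over all 5 genes, few passed 2-fold between viruses and more passed it with A83-01 and between days. Igf2 and Igf1r had means under 20 CPM and would not have entered the comparison over all genes, which took 4504 genes in compartment 1 and 4989 in compartment 2. For TBX18 over GFP at day 3, 1 gene was at least 2-fold higher in compartment 1 (Igf1r, background 4.57% of genes compared) and 0 lower (background 3.84%). In compartment 2, 0 were at least 2-fold higher (background 1.16%) and 1 was lower (Igfbp5, background 0.782%). At day 14, 1 gene was at least 2-fold higher with TBX18 in compartment 1 (Igfbp5, background 2.98%) and 0 lower (background 0.91%), and in compartment 2 there were 0 higher (background 2.26%) and 0 lower (background 0.421%). The median log2 ratios of the 5 genes were 0.29 and -0.55 at day 3 and -0.11 and 0.12 at day 14 in compartments 1 and 2, with Igf2 at its bound where a library had no UMI, against medians of -0.09, -0.08, 0.20 and 0.13 over the genes compared.

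For A83-01 added to TBX18, 2 genes were at least 2-fold lower in compartment 1 (Igf1 and Igfbp5, background 9.92%) and 0 higher (background 0.488%). In compartment 2, 2 were at least 2-fold higher (Igfbp3 and Igfbp5, background 2.53%) and 1 lower (Igf1, background 6.07%). Igf2 gave no ratio in compartment 1. After thinning, from 4.31% to 11.7% of compartment 2 cells and from 35.7% to 87.0% of compartment 1 cells had no UMI of any of the 5 genes. Day 14 over day 3 with GFP gave 4 genes at least 2-fold higher in compartment 1 (background 12.2%; 3 without the clusters of mixed profile, where Igfbp3 was under 2-fold) and 1 lower (Igf2, background 6.39%), and in compartment 2 1 gene higher (Igf1r, background 18.5%) and 1 lower (Igf2, background 9.6%). With TBX18, 3 genes were higher in compartment 1 (background 17.7%; 2 with no cells left out as doublets) and 1 lower (Igf2, background 2.49%), and 3 were higher (background 25.4%; 2 under median-of-ratios scaling) and 1 lower (Igf2, background 6.79%) in compartment 2. With 5 genes, these counts are a description and set the group apart from no other genes.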

How the data were processed

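Per the submitters' processing notes, STAR 2.7.8a, Partek and the Rnor_6.0 genome were used; settings are not given in the sources used here. At day 3 the authors deposited estimated counts of UMIs, as the values show: 99.7% were whole within 0.05. At day 14 they deposited log2 of CPM plus 1 for each cell. There the commonest nonzero value in a cell was read as 1 UMI, and 99.7% of values came out whole. The planned design had assumed counts throughout. Recovery and intervals were tested on simulated data.

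Barcodes with at least 500 genes were kept, and the top 6% of each library by Scrublet score left out, since the automatic threshold marked under 0.05% in 4 of 5 libraries. Cells were clustered in scanpy 1.11.5 (2000 variable genes, 30 components, 20 neighbours, leidenalg 0.10.2 at resolution 1) without the 5 genes and virus features, and cluster profiles were joined into 2 compartments by average linkage. UMIs summed per library and compartment carry exact Poisson intervals, ratios conditional exact intervals and shares Clopper-Pearson intervals. The comparison over all genes used a pseudocount of 0.5 CPM and a mean of at least 20 CPM. Levels are not divided by gene length and are compared within a gene only.

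The members and lists were chosen with earlier results of these data known. The rule for named genes always names the 5 members; the pathway list, TGF-beta list, genes of similar pattern and cell type markers were not used here for lack of gene names. Alternatives were scaling, cell filters, doublets, weighting of cells, thinning, pseudocount and gene filter, and, chosen after seeing the data, other clusterings and leaving out clusters of mixed profile.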

Additional observations from a re-analysis of the deposited data

Results flagged for a closer look

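Some log2 ratios pointed in opposite directions between compartments or between days, and each kept its sign under every alternative that gave a value; with 1 library per group the differences between them were not tested. For Igf1r, TBX18 over GFP at day 3 was 1.24 in compartment 1 and -0.51 in compartment 2. For Igfbp3, day 14 over day 3 was 2.80 in compartment 1 and -0.57 in compartment 2 with GFP, and 1.79 and -0.75 with TBX18. The size of the compartment 1 ratios depended on the cells kept: they were 0.75 with GFP and 1.40 with TBX18 without clusters of mixed profile, and 1.22 and 0.71 with no cells left out as doublets. For Igfbp5, A83-01 with TBX18 over TBX18 was -4.73 in compartment 1 and 1.07 in compartment 2, and day 14 over day 3 with GFP was 2.11 and -0.79. For Igfbp5 the ratio of TBX18 to GFP was -0.78 at day 3 and 2.43 at day 14 in compartment 1, and -2.69 and 0.43 in compartment 2. The shared clusters of compartment 2 did not all follow these Igfbp5 ratios. At day 14 Igfbp5 was higher with TBX18 than with GFP in 2 of 4 of them, and higher with A83-01 than with TBX18 alone in 1 of 2.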

How the results depend on the processing

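No paired analysis was possible because each group has 1 library. Of 568 recomputed log2 ratios, 360 stayed within the counting interval of the reported value, 194 moved beyond it and 14 whose interval had excluded 0 changed sign. Without clusters of mixed profile, compartment 1 ratios became -0.14 for Igfbp3 with TBX18 over GFP at day 3, 0.82 for Igf1 and 0.50 for Igfbp3 at day 14, and -0.14 for Igfbp3 with A83-01, and Igfbp5 in compartment 2 over 1 in the GFP library at day 3 became 0.0033. That last ratio was also 0.26 over the day 14 range of genes and UMIs, 0.19 with no filter on genes per cell and 0.29 as a mean over cells. With no filter on genes, Igfbp3 with TBX18 over GFP at day 3 in compartment 1 became -0.13. Igf1 with TBX18 over GFP at day 3 in compartment 2 became 0.040 under median-of-ratios scaling, 0.047 over the day 14 range and 0.0026 as a mean over cells, and at day 14 in compartment 1 it became 0.20 as a mean over cells. Igf1r at day 14 over day 3 with TBX18 in compartment 1 became -0.11 under median-of-ratios scaling. The cause was not tested in any of these.

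Of 160 recomputed counts of genes past 2-fold, 150 were unchanged and 10 changed. For day 14 over day 3, genes higher in compartment 1 went from 4 to 3 with GFP without clusters of mixed profile and from 3 to 2 with TBX18 with no cells left out as doublets, and in compartment 2 with TBX18 from 3 to 2 under median-of-ratios scaling. TBX18 over GFP gave 2 genes higher in compartment 1 at day 3 over the day 14 range, and 1 lower in compartment 2 at day 14 with no cells left out as doublets. In compartment 2, day 14 over day 3 with GFP gave 0 higher and 2 lower under median-of-ratios scaling, and 2 lower over the day 14 range and as a mean over cells; with TBX18 it gave 2 lower under that scaling. Median-of-ratios scaling added 0.56 to the A83-01 ratios in compartment 1 and 0.10 in compartment 2, -0.05 and 0.10 to those of TBX18 over GFP at day 3, -0.27 and -0.15 at day 14, -0.29 and -0.28 to day 14 over day 3 with GFP and -0.51 and -0.53 with TBX18.

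Calling cells by their own markers and the alternatives for the pathway list were not run, for lack of gene names. Without thinning, 45 of 50 shares of cells moved beyond their interval. Depth limits Igf2 and Igf1r most, which rest on at most 134 and 675 UMIs in any compartment of a library.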
